A study of Mus musculus with 6 samples.

Results

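The genes described here carry the symbols of protein subunits of the mitochondrial respiratory chain and of ATP synthase. They were chosen by name: protein coding genes whose symbol begins with mt-, or is one of the Nduf, Sdh, Uqcr, Cox4 to Cox8 or Atp5 symbols. Of 24906 genes in the deposited table, 95 met this rule, and 98 genes of the annotation did. The 3 that had no row under their identifier were Cox7b2, Cox8c and a gene model of Atp5o, and they are not analysed here. The mitochondrial genome encodes 13 of the 95 genes and the nucleus 82, of which 37 belong by symbol to complex I, 4 to complex II, 8 to complex III, 16 to complex IV and 17 to complex V.

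The study sequenced RNA from spleen cells of 3 D3TA mice and 3 wild-type (WT) mice, with 1 library from each mouse. D3TA mice are C57BL/6J animals in which CRISPR/Cas9 changed the cyclin D3 gene Ccnd3, so that the protein carries alanine in place of the phosphorylatable threonine 283 (T283A). The line was kept as a heterozygous knock-in, and the zygosity of the 3 animals sequenced is not stated further. All animals were 12 to 16 months old, an age at which the series describes a severe myeloproliferative neoplasm in D3TA mice, and no treatment is named for either group.

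The respiratory chain passes electrons from NADH through complex I, or from succinate through complex II, to coenzyme Q, then through complex III and cytochrome c to complex IV, where oxygen is reduced to water. Complexes I, III and IV pump protons across the inner membrane, and complex V, the ATP synthase, uses the gradient to make ATP. Each of these complexes except complex II joins proteins made from mitochondrial DNA with proteins made from nuclear genes, so the products of the 2 genomes must meet in the same assemblies.

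No respiratory chain gene passed the test between the genotypes (limma on log2 values, Benjamini-Hochberg adjusted p under 0.05), and 0% of all 15564 tested genes did. At an unadjusted p under 0.05 limma had 2 of the 92 tested respiratory chain genes, against 9.91% of all genes. On recovered reads, edgeR called 0 genes at all, and DESeq2 called 341 genes higher and 131 lower, with 0 respiratory chain genes among them. Across the individual mice, the genes of the 2 genomes lay high and low in different libraries. All 12 tested mitochondrial genes had their highest value in WT-2, against 14.7% of all genes tested. Of the 12, 9 had their lowest in WT-3, against 22.1%. The nuclear genes varied less, and 61 of 80 had their highest value in that same WT-3 library, against 22.1% of all genes.

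Some facts about the libraries touch these results. The libraries held 14944622 to 19456838 reads recovered from the deposited values, and a value of 3 reads corresponded to 2.59 to 3.36 normalized counts. Hemoglobin genes took 6.39% and 6.76% of reads in D3TA-1 and D3TA-2 and 6.57% in WT-3, against 1.40% to 1.91% in the other libraries. WT-2 stood apart with 8449 genes listed at 0, against 3193 to 5170 elsewhere. The spleen label was checked on 10 leukocyte genes, and all 10 passed the filter on low values, while 3 of 9 striated muscle genes passed it, with summed values of 56.2 to 331. All 12 neutrophil genes were higher in each D3TA mouse than in each WT mouse (summed normalized count 83809 to 462484 against 12920 to 28739). The 12 B cell genes summed to 114611 to 185795 in D3TA and 212484 to 456206 in WT, and the 12 erythroid genes to 17712 to 144211 and 21209 to 28333. No gene of these marker lists was at 0 in all libraries. In bulk RNA, fewer cells of a type and less RNA per cell cannot be told apart. The part of cell composition in the values below was not tested.

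The mitochondrial genome is transcribed as long precursors that are cut into messenger RNAs with few or no bases between them, and a pair of genes can share bases. This is shown for the 2 gene pairs that share a stretch on the same strand, because a read in the shared bases belongs to both genes. In the lines below, from the GENCODE M21 transcripts on GRCm38, capitals mark the shared bases, and they are 43 bases at chrM:7927-7969 and 7 bases at chrM:10167-10173.
mt-Atp8 and mt-Atp6: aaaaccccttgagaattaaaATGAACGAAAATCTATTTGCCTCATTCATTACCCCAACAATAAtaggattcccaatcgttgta
mt-Nd4l and mt-Nd4: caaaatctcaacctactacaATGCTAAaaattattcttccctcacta
The capitals in each line begin with the start codon of the downstream gene. The genes mt-Nd5 and mt-Nd6 share 14 bases on opposite strands (chrM:13552-13565), and mt-Atp6 and mt-Co3 share 1 base.

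Several mitochondrial genes also have a near-identical copy in the nucleus, a fragment of mitochondrial DNA inserted into chromosome 1. The annotation lists 7 unprocessed pseudogenes there within chr1:24611535-24616197, on the minus strand. The copy of mt-Co3 is shown because mt-Co3 had the largest genotype difference among the mitochondrial genes. Its first 60 bases and those of the copy, Gm28437, follow, with the start codon in capitals.
mt-Co3: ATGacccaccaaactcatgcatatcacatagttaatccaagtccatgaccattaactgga
Gm28437: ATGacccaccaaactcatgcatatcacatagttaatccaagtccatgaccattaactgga
All 783 aligned bases of mt-Co3 and Gm28437 were identical. The same was found for all 681 bases of mt-Co2 and Gm28661, 678 of mt-Atp6 and Gm10925, and 294 of mt-Nd4l and Gm10222. The copy of mt-Nd3, Gm28438, matched at 344 of 345 bases and differed by T3C, counted from the first base of the gene. The copy of mt-Co1, Gm29216, matched 486 of 492 bases of the gene's end.

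The copied stretch stops inside mt-Nd4. The line below gives bases 847 to 906 of that gene, where capitals are the last bases also present in Gm28439, which matched the first 876 bases without a difference.
mt-Nd4: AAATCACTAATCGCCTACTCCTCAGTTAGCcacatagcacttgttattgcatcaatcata
With windows of 50 bases, 100% of mt-Co2, 99.9% of mt-Co3, 99.5% of mt-Atp6, 98.8% of mt-Nd4l and 98.0% of mt-Nd3 were found in another annotated gene. The share was 62.2% for mt-Nd4, 51.1% for mt-Co1, 8.19% for mt-Nd2 and 7.61% for mt-Nd5. No window of mt-Nd1, mt-Nd6, mt-Cytb or mt-Atp8 was found in another annotated gene. For mt-Atp8 this covers annotated transcripts only: the stretch of chromosome 1 between Gm10925 and Gm28661, the copies of its neighbours mt-Atp6 and mt-Co2, was not searched. A read from a fully copied gene has at least 2 equal places to map, and how such reads were counted is not given in the sources used here.

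The 5 mostly copied genes had low values in every library. Their mean level was 58.2 to 976 normalized counts per kilobase of gene, while the 5 tested genes with under 10% of windows shared had 3806 to 34760. The 2 genes between were at 12110 (mt-Nd4) and 58520 (mt-Co1). All the genes compared come from the same precursor transcripts except mt-Nd6, which is read from the other strand. Whether multiply mapping reads account for the low levels was not tested. mt-Atp8, which encodes a small subunit of the ATP synthase membrane part, had 0, 1.01 and 0 normalized counts in D3TA and 0.955, 0 and 3.87 in WT. These values are 4 reads or fewer in each library, and mt-Atp8 did not pass the filter of at least 10 in at least 3 libraries. At 4.76 normalized counts per kilobase it had the lowest level of the 13 genes. Its last 43 bases are also the start of mt-Atp6, and the annotated copy Gm10925 holds them. This stretch is shorter than the windows used, so the window search could not find it. Whether the rest of mt-Atp8 has a copy in the nucleus was not tested.

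**Figure D1:**
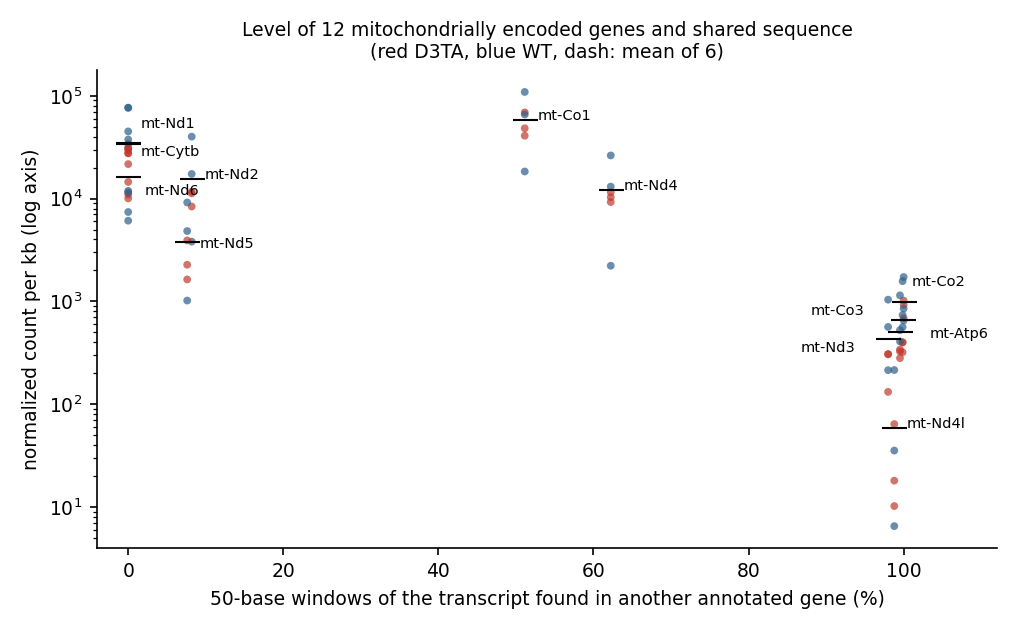
Mean and per-library normalized count per kilobase (log axis) of the 12 tested mitochondrial genes against the percent of their 50-base windows found in another annotated gene; red points are the 3 D3TA and blue the 3 WT libraries, and the dash is the mean of all 6. The 5 genes at 98.0% or above have means of 58.2 to 976, and the 5 genes under 10% have means of 3806 to 34760.

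The reads on the 13 mitochondrial genes together made up 0.875%, 1.07% and 1.38% of all reads in D3TA-1, D3TA-2 and D3TA-3. They made up 1.44%, 2.69% and 0.328% in WT-1, WT-2 and WT-3. The D3TA values lay inside the WT range, and the highest and the lowest library of the study were both WT. The difference of the group means was -0.379 percentage points, and it was 0.223 without WT-2 and -0.960 without WT-3. The share on the 82 nuclear genes was 1.24%, 1.25% and 1.21% in D3TA and 1.08%, 1.20% and 1.55% in WT. The number of mitochondrial reads per nuclear respiratory chain read was 0.706, 0.861 and 1.14 in D3TA and 1.34, 2.24 and 0.211 in WT. WT-2 and WT-3 thus lay at opposite ends of this ratio, with all D3TA mice between them. These sums are described without a test.

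**Figure D2:**
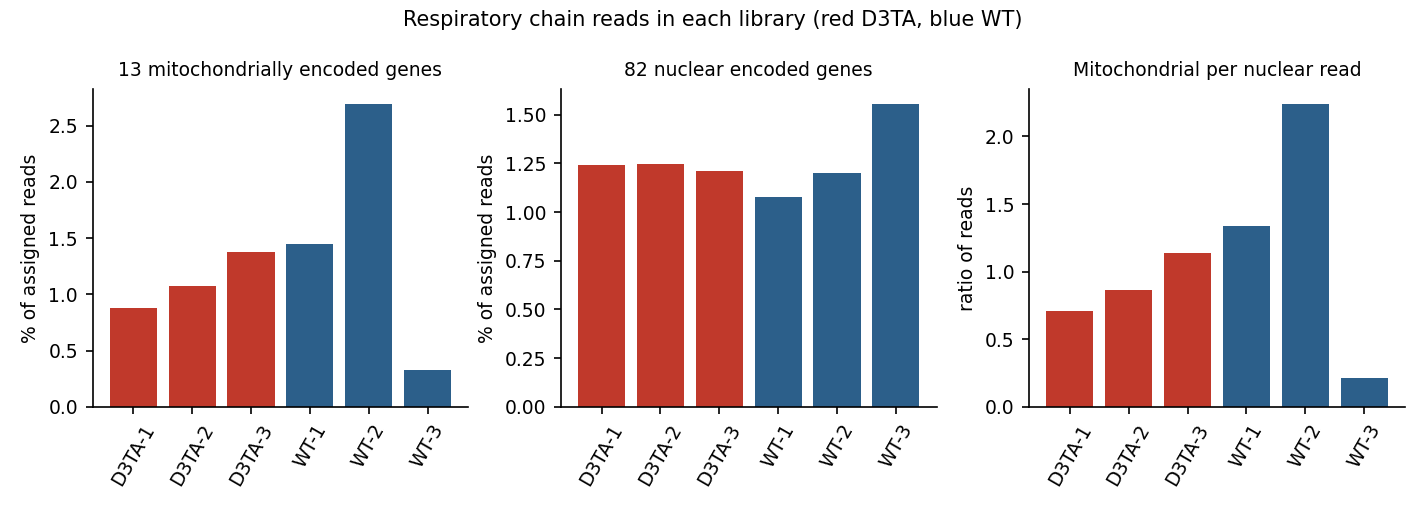
Percent of assigned reads on the 13 mitochondrial genes (left), on the 82 nuclear genes (middle), and mitochondrial reads per nuclear respiratory chain read (right), 1 bar per library, red D3TA and blue WT. The mitochondrial share runs from 0.328% in WT-3 to 2.69% in WT-2, and the nuclear share from 1.08% to 1.55%.

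Values for single genes are normalized counts, given in the order D3TA-1, D3TA-2, D3TA-3 and then WT-1, WT-2, WT-3. Each difference is the D3TA mean less the WT mean of log2(normalized count + 1), with limma's standard error (SE), and is positive where D3TA was higher. Adjusted p-values are from limma with Benjamini-Hochberg adjustment over all tested genes, with 3 libraries in each group. Over all 15564 tested genes, 6.08% were higher and 3.83% lower in D3TA at an unadjusted p under 0.05. Every D3TA value was above every WT value for 8.18% of them and below for 6.84%.

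Of the 12 tested mitochondrial genes, 0 passed the adjusted test, and 2 were lower in D3TA at an unadjusted p under 0.05, mt-Co3 and mt-Atp6. The log2 difference was above 0 for 2 genes and below 0 for 10, with a median of -0.37. Over all genes tested, 54.5% were above 0 and the median was 0.06. The mitochondrial median was 0.40 without WT-2, -1.0 without WT-3 and -0.41 without both of them. With a term for libraries of high hemoglobin content it was 0.08. On recovered reads it was -0.88 with edgeR (0 above, 12 below) and -0.94 with DESeq2, which tested all 13 genes (0 above, 13 below). Its sign and size thus depended on these choices. The libraries with low hemoglobin gave a median of -0.87 (D3TA-3 against WT-1 and WT-2), and those with high hemoglobin gave 0.98 (D3TA-1 and D3TA-2 against WT-3). Each of these strata has a lone mouse in 1 group, and no test was made within them.

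mt-Nd1 to mt-Nd6 and mt-Nd4l encode the hydrophobic core of the membrane arm of complex I, where protons are pumped. mt-Nd1 had 26460, 29508 and 26384 normalized counts in D3TA and 32528, 73350 and 11360 in WT. The 3 D3TA mice were close together and inside the WT range, and the difference was -0.13 ± 0.56 (SE, adjusted p = 0.957 with limma). mt-Nd2 had 8689, 11675 and 12090 against 18018, 41551 and 3954. Again both extremes were WT mice, with a difference of -0.42 ± 0.68 (adjusted p = 0.867 with limma). mt-Nd4 had 12750, 15887 and 14202 against 18017, 36206 and 3060, a difference of 0.18 ± 0.72 (adjusted p = 0.954 with limma). The sign of this difference turned with the edgeR and DESeq2 fits of the recovered reads, to -0.42 in each.

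mt-Nd5, another of the proton pumping subunits, had 2980, 4141 and 7142 normalized counts in D3TA and 8814, 16715 and 1858 in WT. D3TA-1 and D3TA-2 lay below WT-1 and WT-2, D3TA-3 came near WT-1, and the difference was -0.54 ± 0.68 (adjusted p = 0.825 with limma). mt-Nd6 is the only protein coding gene on the light strand, and its messenger is known to lack the poly(A) tail of the others. It had 5700, 7534 and 5207 against 5943, 23360 and 3162, a difference of -0.32 ± 0.60 (adjusted p = 0.889 with limma). Although poly-T beads were used, mt-Nd6 had more normalized counts per kilobase than mt-Nd5 in each library, with ratios of 6.72, 6.39 and 2.56 in D3TA and 2.37, 4.91 and 5.98 in WT. No strand-marking step is described, so reads of mt-Nd6 and reads of the opposite strand at the same place cannot be told apart.

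The mostly copied complex I genes, mt-Nd3 and mt-Nd4l, had lower levels per kilobase than the other complex I genes of this genome. mt-Nd3 had 107, 106 and 45.8 normalized counts in D3TA and 74.5, 361 and 196 in WT, a difference of -1.11 ± 0.61 (adjusted p = 0.593 with limma). D3TA-1 and D3TA-2 were above WT-1, so the groups overlapped, and the difference was -0.58 without WT-2 and -1.71 without WT-1. mt-Nd4l had 5.36, 3.03 and 19.0 against 10.5, 63.8 and 1.93. The lowest of these is 2 reads, and the 95% interval of the difference ran from -3.54 to 2.15.

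mt-Cytb encodes cytochrome b, the only mitochondrially encoded subunit of complex III, which holds both quinone sites of the complex. Its values were 24765, 34093 and 35570 in D3TA and 42968, 87288 and 8464 in WT. The D3TA mice differed from each other far less than the WT mice did, and the group difference was -0.03 ± 0.69 (adjusted p = 0.991 with limma).

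mt-Co1, mt-Co2 and mt-Co3 form the core of complex IV, and mt-Co1 carries the heme and copper center where oxygen is reduced. Per kilobase, mt-Co1 had the highest level of all 95 genes, and its values were 63149, 74574 and 106565 normalized counts in D3TA and 101578, 168281 and 28338 in WT. It took 41.7% to 51.2% of mitochondrial messenger values in D3TA and 37.4% to 45.9% in WT, and the difference was 0.02 ± 0.58 (adjusted p = 0.994 with limma). mt-Co2, which accepts electrons from cytochrome c, had 633, 696 and 470 against 582, 1180 and 446. These groups overlapped, with a difference of -0.19 ± 0.38 (adjusted p = 0.903 with limma).

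mt-Co3 had 313, 313 and 251 normalized counts in D3TA and 440, 1233 and 578 in WT. Every D3TA value was below every WT value, and the level in D3TA was 2.33-fold lower. The difference of -1.22 ± 0.39 was the largest in size among the mitochondrial genes and did not pass the test (unadjusted p = 0.0107, adjusted p = 0.361 with limma). Without WT-2 it was -0.79, and over the libraries left out in turn the adjusted p ran from 0.248 to 0.827. The 3 mitochondrial genes that were lowest in D3TA-3 rather than in WT-3 were mt-Co3, mt-Nd3 and mt-Atp6. As a percent of the mt-Co1 value, mt-Co3 was at 0.495, 0.420 and 0.235 in D3TA and 0.434, 0.733 and 2.04 in WT, and these ranges overlapped. The nuclear copy Gm28437 had 208, 239 and 194 against 316, 834 and 380, with the same order of groups (-1.12, adjusted p = 0.402 with limma). The ratio of mt-Co3 to its copy stayed between 1.29 and 1.52 in all 6 libraries. Because all their aligned bases are identical, the copy is no second observation.

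mt-Atp6 encodes subunit a of the ATP synthase, which forms the proton path beside the rotating ring. It had 222, 231 and 191 normalized counts in D3TA and 357, 780 and 277 in WT. The groups did not overlap, and the difference of -0.99 ± 0.41 did not pass the test (unadjusted p = 0.0350, adjusted p = 0.458 with limma). Without WT-2 it was -0.55. Its copy Gm10925 had 201, 233 and 220 against 380, 874 and 306 (-1.10, adjusted p = 0.423 with limma), and the ratio of gene to copy was 0.867 to 1.10. The 2 mitochondrial genes whose groups did not overlap both have a complete copy. So do mt-Co2 and mt-Nd4l, whose groups overlapped. Reads from identical bases cannot be told apart, so the same order in the copies is no second observation. The part of copied sequence in the differences was not tested. Over the 5 mostly copied genes the median difference was -0.99, over the 5 tested genes with under 10% shared it was -0.32, and over mt-Nd4 and mt-Co1 it was 0.10.

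**Figure D3:**
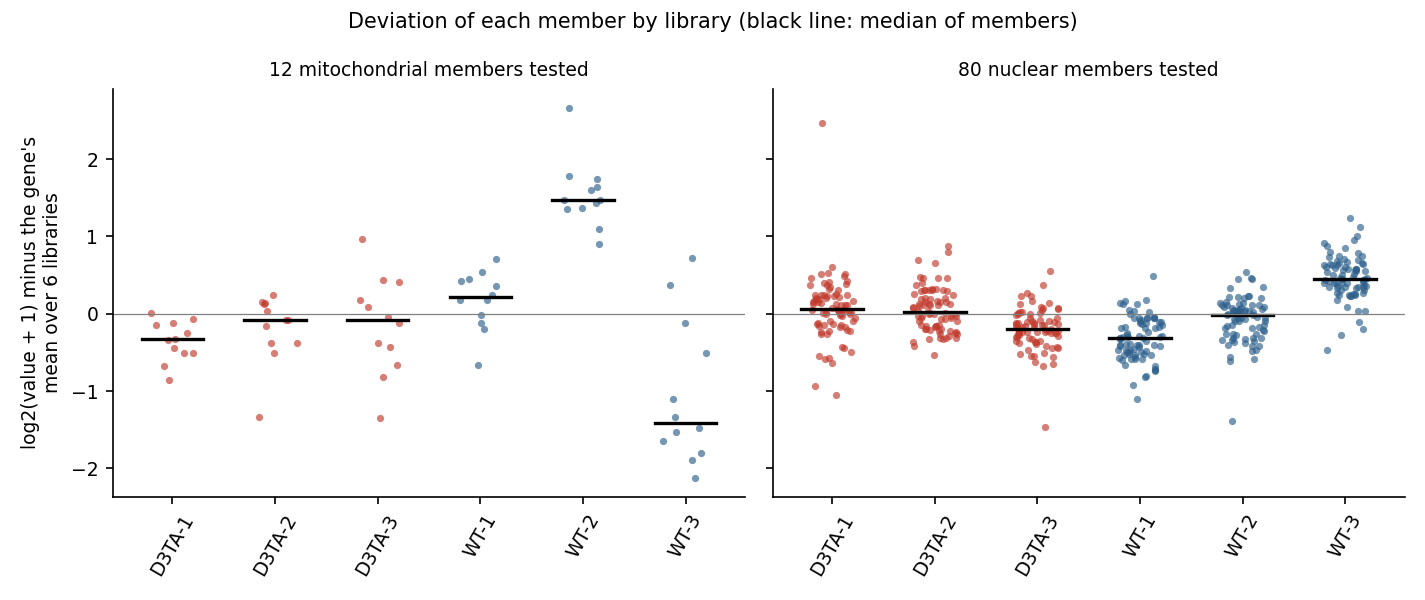
Deviation of log2(normalized count + 1) from the gene's own mean over 6 libraries, 1 point per gene, for 12 mitochondrial genes (left) and 80 nuclear genes (right); the black line is the median. The mitochondrial median is 1.47 in WT-2 and -1.41 in WT-3, and the nuclear median lies between -0.31 in WT-1 and 0.45 in WT-3.

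The spread within WT was wide for the mitochondrial genes and not for the nuclear genes. The highest WT value was a median of 6.91 times the lowest for the 12 mitochondrial genes, 1.84 times for the 80 nuclear genes and 1.90 times for all genes tested. In D3TA these ratios were 1.44, 1.39 and 1.79. The share of nuclear genes that had their highest value in WT-3 was 76.3%, against 22.1% of all genes tested, and WT-1 was the lowest library for 48.8%, against 12.2%. By complex, WT-3 was the highest library for 29 of 37 genes of complex I, 2 of 4 of complex II, 5 of 8 of complex III, 10 of 14 of complex IV and 15 of 17 of complex V. In WT-3, 76 of 80 nuclear genes were above their own mean while 10 of 12 mitochondrial genes were below it. WT-3 was also the only WT library with a hemoglobin share above 5%, and its red pulp macrophage genes had the highest sum of the study (81301, against 24940 to 54149 in the other 5 libraries). D3TA-1 and D3TA-2 had similar hemoglobin shares (6.39% and 6.76%), with nuclear median deviations of 0.07 and 0.02, against 0.45 in WT-3. D3TA-3 had the next highest macrophage sum (54149), with a nuclear median deviation of -0.19. The part of hemoglobin content or macrophages in the nuclear values was not tested.

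Of the 80 tested nuclear genes, 0 passed the adjusted test and 0 reached an unadjusted p under 0.05 with limma, against 9.91% of all genes tested. At an unadjusted p under 0.05, edgeR and DESeq2 each had 1, Cox6b2, which did not pass after adjustment (adjusted p = 0.415 and 0.0979). The log2 difference was above 0 for 27 and below 0 for 53, with a median of -0.09. With plain library size scaling the split was 39 against 41, and without WT-3 it was 56 against 24 with a median of 0.12. In the other direction, it was 17 against 63 without WT-1 (median -0.22) and 12 against 68 with the hemoglobin term (median -0.18). The difference was under 0.5 in size for 77 of 80, and the 95% interval included 0 for all 80. The median width of that interval on each side was 0.72, a 1.64-fold change. This is the width for a single gene without adjustment, and the adjusted test can miss larger changes as well.

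**Figure D4:**
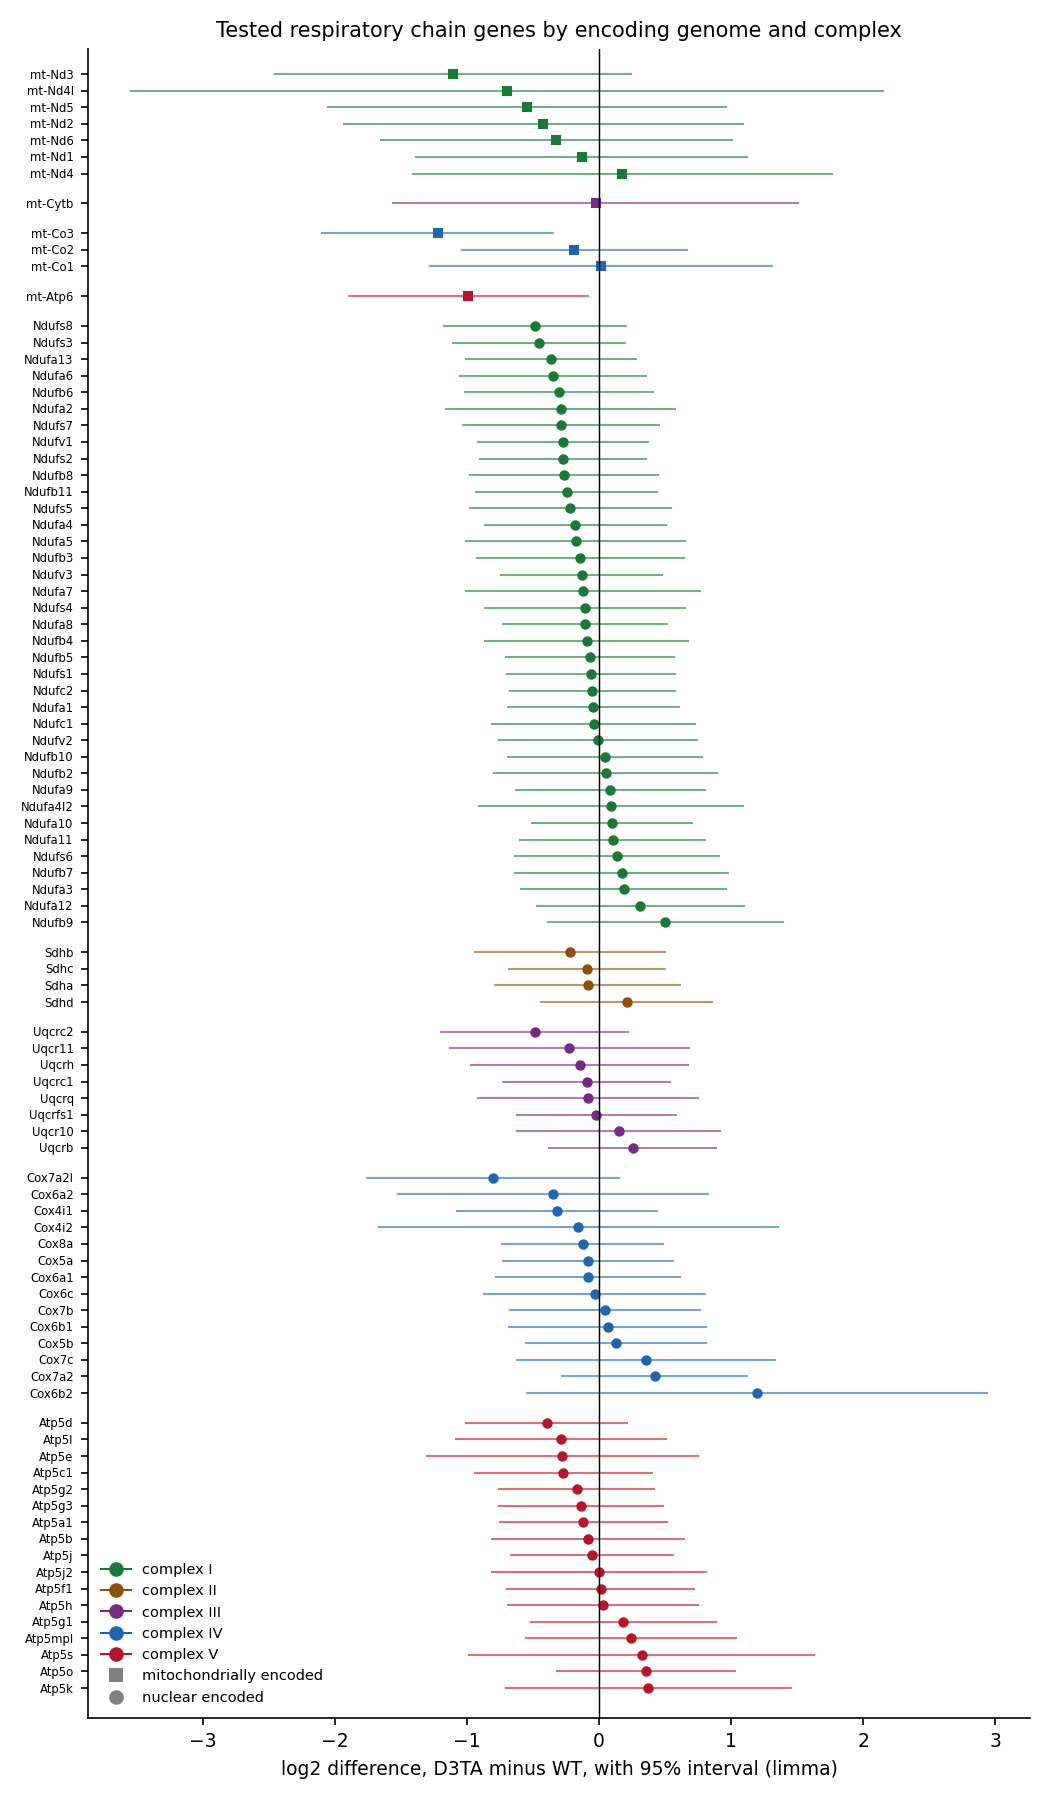
Log2 difference between D3TA and WT (x axis) with its 95% interval from limma for the 92 tested respiratory chain genes, grouped by encoding genome and complex; squares are mitochondrial and circles nuclear genes. Intervals exclude 0 for mt-Co3 and mt-Atp6, and none of the 92 genes passed the adjusted test.

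The 37 nuclear genes of complex I, the entry point for electrons from NADH, had a median difference of -0.10 with 11 above and 26 below 0. Ndufa4 had the highest value among them. It is grouped here by its symbol, although its protein is now assigned to complex IV. Ndufa4 had 2744, 3482 and 2837 normalized counts in D3TA and 2574, 3228 and 4732 in WT, with overlapping groups (-0.18 ± 0.31, adjusted p = 0.878 with limma). Ndufb9, an accessory subunit of the membrane arm, had the largest positive difference, with 1428, 1705 and 862 against 641, 733 and 1576. WT-3 lay within the D3TA range, and the difference was 0.50 ± 0.40 (adjusted p = 0.714 with limma). An exon of Ndufb9 overlaps another annotated gene on the same strand, Gm49356, so its counts are uncertain. Ndufs8, which holds a pair of iron-sulfur clusters in the chain toward quinone, had the largest negative one, with 1091, 1472 and 1654 against 1546, 1801 and 2629. Only D3TA-3 overlapped WT, and the difference was -0.49 ± 0.31 (adjusted p = 0.648 with limma).

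Ndufa13, also known as GRIM-19, is a complex I subunit named here after its values were seen, because its groups did not overlap. It had 1596, 1629 and 1533 normalized counts in D3TA and 1736, 1753 and 2808 in WT, and WT-3 alone was far from the rest (-0.37 ± 0.29, adjusted p = 0.711 with limma). Ndufa13 and Atp5d were the only 2 of 80 nuclear genes with every D3TA value below every WT value, and 0 had every value above. Across all genes tested these shares were 6.84% and 8.18%.

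Complex II is succinate dehydrogenase, an enzyme of the citric acid cycle, and all of its 4 subunits are nuclear. Sdha, the flavoprotein that oxidizes succinate, had 3146, 2388 and 2872 normalized counts in D3TA and 4017, 3109 and 2068 in WT. It was lowest in WT-3, where most other nuclear genes were highest, and the difference was -0.09 ± 0.32 (adjusted p = 0.949 with limma). Sdhb, the iron-sulfur subunit, had 1436, 1419 and 2020 against 1720, 1390 and 2718 (-0.22 ± 0.33, adjusted p = 0.856 with limma). The membrane anchors Sdhc and Sdhd hold the quinone site. Sdhc had 2055, 1607 and 1720 against 1717, 1929 and 2087, a narrow range in both groups (-0.09 ± 0.27). Sdhd had 3362, 3078 and 2729 against 2009, 2715 and 3347 (0.21 ± 0.29). All 4 genes overlapped between genotypes.

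The 8 nuclear genes of complex III, the cytochrome bc1 complex, had a median of -0.09. Uqcrh, the acidic hinge protein that helps cytochrome c to dock, had the highest value, with 6036, 8511 and 4504 normalized counts in D3TA and 4326, 8824 and 8217 in WT (-0.15 ± 0.37, adjusted p = 0.921 with limma). Uqcrc2, a core protein, had 1275, 1313 and 2464 against 2150, 2198 and 2401. D3TA-1 and D3TA-2 were well below all WT mice, D3TA-3 was above all of them, and the difference was -0.49 ± 0.32 (adjusted p = 0.658 with limma). Uqcrb, a subunit near the quinone reduction site, had 1314, 1385 and 981 against 840, 1060 and 1183 (0.25 ± 0.29, adjusted p = 0.803 with limma). Pseudogenes share 19.2% of the Uqcrb windows, so its counts are less certain than those of Uqcrc2 and Uqcrh, with 0%.

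The 14 tested nuclear genes of complex IV had a median of -0.06 and the widest range of all complexes, from -0.80 to 1.19. Cox4i1, the ubiquitous form of subunit 4, had the highest value, with 10047, 11734 and 9654 normalized counts in D3TA and 9280, 12079 and 19610 in WT (-0.32 ± 0.34, adjusted p = 0.793 with limma). WT-3 again lay apart from the other libraries, which were within the range of 9280 to 12079.

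Cox7a2l (chr17:83501918-83517330), also called SCAF1, is a relative of the Cox7a subunits that helps to link complexes III and IV into supercomplexes, and C57BL/6 strains carry a shorter form of it. It had 3409, 6931 and 6440 normalized counts in D3TA and 5963, 8118 and 16664 in WT. WT-3 was the highest and D3TA-1 the lowest library, and WT-1 lay within the D3TA range. The difference of -0.80 ± 0.43 was the largest negative one among nuclear genes (adjusted p = 0.583 with limma), and it was -0.38 without WT-3 and -0.48 without D3TA-1. A processed pseudogene shares 17.7% of its windows. As a share of the summed level per kilobase of Cox7a1, Cox7a2 and Cox7a2l, Cox7a2l made up 48.0%, 62.9% and 66.9% in D3TA and 74.1%, 77.4% and 80.4% in WT. These groups did not overlap. The ratio was singled out after its values were seen and has no test here, and 3 libraries against 3 cannot give an exact 2-sided p below 0.10. Within it, Cox7a2, the common form, had 2353, 2587 and 2021 against 1330, 1507 and 2556 (0.42 ± 0.32).

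Cox6b2 (chr7:4751792-4753094) is known as a testis form of the subunit that caps the dimer of complex IV. It had 1465, 460 and 95.1 normalized counts in D3TA and 122, 198 and 219 in WT. D3TA-1 and D3TA-2 were above all WT mice and D3TA-3 was below all of them. The difference of 1.19 ± 0.79 was the largest of all 92 tested genes on the positive side and did not pass the test (adjusted p = 0.658 with limma). Without D3TA-3 it was 2.23 and was called (adjusted p = 0.0441 with limma), and without D3TA-1 it was 0.26. Of the summed level per kilobase of Cox6b1 and Cox6b2, Cox6b2 made up 20.6%, 7.66% and 2.22% in D3TA and 3.15%, 4.71% and 2.81% in WT. The D3TA libraries stood in the same order as their erythroid sums, which were 144211, 54098 and 17712, and as their neutrophil sums, 462484, 437335 and 83809. The mitosis sums (71226, 27082 and 16302) and megakaryocyte sums (12799, 9236 and 5488) had this order too. Over all 6 libraries the neutrophil and mitosis orders failed, since D3TA-3 had the lowest Cox6b2 value and sums of both lists above all WT mice. The erythroid and megakaryocyte orders failed as well, since WT-2 was above WT-1 in Cox6b2 and below it in both of these sums. The part of any of these in Cox6b2 was not tested.

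**Figure D5:**
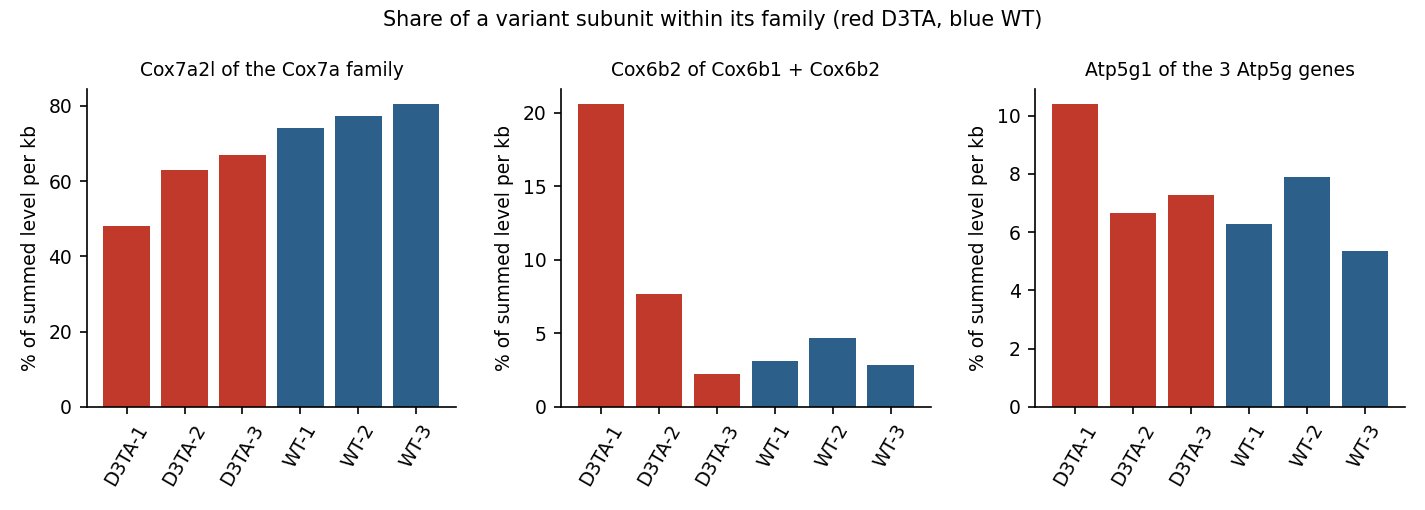
Share of a variant subunit in the summed normalized count per kilobase of its family, 1 bar per library, red D3TA and blue WT. Cox7a2l lies at 48.0% to 66.9% in D3TA and 74.1% to 80.4% in WT, and Cox6b2 reaches 20.6% in D3TA-1 alone.

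The other tissue forms were scarce in these spleen cells. Cox4i2, the hypoxia-linked form of subunit 4, made up 0.421% to 1.04% of the summed level per kilobase with Cox4i1 in D3TA and 0.423% to 0.796% in WT. The heart and muscle forms Cox6a2 and Cox7a1 made up 0.498% to 1.93% with Cox6a1 and 0.160% to 1.25% with Cox7a2 over all libraries, and Cox8b at most 0.349% with Cox8a. Cox8b was listed at 0 in 3 libraries, and Cox7a1 and Cox8b did not pass the filter. Ndufa4l2, a relative of Ndufa4 induced in low oxygen, made up 2.29% to 3.88% with Ndufa4. The tested genes Cox4i2, Cox6a2 and Ndufa4l2 had differences of -0.16, -0.35 and 0.09, and none passed the test (adjusted p = 0.957, 0.862 and 0.963 with limma). Exons of Ndufa4l2 and Cox6a2 overlap Shmt2 and Itgad on the opposite strand, whose reads cannot be told apart without strand information.

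The 17 nuclear genes grouped by symbol with the ATP synthase had a median of -0.05 and a range of -0.40 to 0.37. Among them, Atp5s is named Dmac2l in RefSeq, and whether its protein is a subunit was not examined. Atp5b, the catalytic beta subunit, had 12207, 8738 and 13637 normalized counts in D3TA and 12767, 9004 and 15002 in WT (-0.08 ± 0.33, adjusted p = 0.953 with limma). Atp5d, the delta subunit of the central stalk, had 3742, 2997 and 3143 against 3825, 4148 and 5070. Its groups did not overlap, although D3TA-1 and WT-1 were nearly equal, and the difference was -0.40 ± 0.27 (adjusted p = 0.669 with limma). Atp5k, the small subunit e that helps synthase dimers to form, had 1091, 1260 and 504 against 440, 516 and 1404. WT-3 was above all D3TA mice and the other 2 WT mice were near D3TA-3, with a difference of 0.37 ± 0.49 (adjusted p = 0.833 with limma).

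Subunit c, which builds the rotating ring, comes from 3 genes that give the same mature protein. Atp5g1 made up 10.4%, 6.64% and 7.26% of their summed level per kilobase in D3TA and 6.26%, 7.89% and 5.36% in WT. Atp5g2 made up 41.7% to 52.9% and Atp5g3 39.8% to 47.9% over all libraries. The order Atp5g2, Atp5g3, Atp5g1 held in all libraries except D3TA-1, where Atp5g3 was the highest. Their differences were 0.18 ± 0.32 for Atp5g1, -0.17 ± 0.26 for Atp5g2 and -0.14 ± 0.28 for Atp5g3, none past the test (adjusted p = 0.877, 0.863 and 0.904 with limma).

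Some nuclear values are uncertain for the same reason as the mitochondrial ones. Of the 82 nuclear genes, 32 had at least 1 window of 50 bases in another annotated gene. For 6 of them the share was over 20%: Ndufb4 (37.0%), Ndufs3 (35.8%), Ndufs5 (31.1%), Cox7c (27.9%), Cox5b (25.9%) and Atp5h (23.8%). In addition, 29 had an exon that overlaps another gene, 26 of them on the opposite strand. Of the nuclear genes named above, Ndufa13, Ndufs3, Ndufa4l2, Uqcrb, Uqcrc2, Cox4i1, Cox6a2 and Atp5d overlap a gene on the opposite strand in this way.

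The promoters of the nuclear genes were read for motifs of factors known to drive respiratory chain genes. Of the 82, 67 matched the RefSeq promoter table of GRCm38.p6, which gives 250 bases before and 50 after each start. The NRF1 motif, GCATGCGC, was found on either strand in 10 of 67 genes (14.9%) and in 3.05% of all 27025 genes of the table. The GABP motif, CCGGAAG, was in 16 (23.9%) against 9.93%, and a TATA box, TATAAA, in 6 (8.96%) against 15.7%. None of these motifs contains another. The promoters of Cox6a1 (chr5:115348909-115349208, minus strand) and Atp5k (chr5:108434350-108434649, minus strand) are shown because each holds the NRF1 motif on both strands, overlapping itself, and a GABP motif. Capitals mark the matches.
Cox6a1: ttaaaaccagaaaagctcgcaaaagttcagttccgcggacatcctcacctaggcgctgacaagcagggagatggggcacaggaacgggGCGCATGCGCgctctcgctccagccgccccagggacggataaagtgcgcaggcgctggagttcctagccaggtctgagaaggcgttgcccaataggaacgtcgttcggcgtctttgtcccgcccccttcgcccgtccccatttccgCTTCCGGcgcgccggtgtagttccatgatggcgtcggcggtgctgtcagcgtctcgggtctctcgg
Atp5k: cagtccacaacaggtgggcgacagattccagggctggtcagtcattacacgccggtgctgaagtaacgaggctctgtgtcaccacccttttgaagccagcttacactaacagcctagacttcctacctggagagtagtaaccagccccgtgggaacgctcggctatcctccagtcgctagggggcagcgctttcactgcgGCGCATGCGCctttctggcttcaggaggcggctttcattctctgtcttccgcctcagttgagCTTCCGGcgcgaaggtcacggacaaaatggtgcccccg
Both genes had their highest value in WT-3, as did 61 of the 80 tested nuclear genes. Cox6a1, the common form of subunit 6a, had 6401, 5315 and 4676 normalized counts in D3TA and 5383, 4445 and 7905 in WT (-0.08 ± 0.31, adjusted p = 0.951 with limma). Atp5k is described above. A match of letters describes the sequence and no binding was measured. Whether genes with and without a motif differed across the libraries was not tested.

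Genes that build, supply or regulate the chain were read from 12 further lists, and 0 of their tested genes passed the adjusted test. Assembly factors were mostly below 0 for complexes I (5 above, 10 below, median -0.17) and II (0 above, 4 below, median -0.44). They were divided for complex III (3 and 3, median -0.09), complex IV (8 and 10, median -0.15) and complex V (2 and 2, median 0.14). Sdhaf4, which protects the flavoprotein of complex II during assembly, had 228, 290 and 264 normalized counts in D3TA and 283, 579 and 668 in WT (-0.88 ± 0.38, adjusted p = 0.479 with limma). D3TA-2 was just above WT-1, so the groups overlapped. Coa6, a copper chaperone of complex IV, had 291, 404 and 355 against 444, 569 and 686, without overlap (-0.68 ± 0.31, adjusted p = 0.507 with limma). The complex I factor Tmem126b also did not overlap (-0.52, adjusted p = 0.623 with limma), and the complex III factor Uqcc3 did (-0.61, adjusted p = 0.599 with limma). Atpif1, which inhibits the synthase when it runs backward, had 5330, 2963 and 1351 against 1197, 1417 and 3618, a difference of 0.60 ± 0.53 (adjusted p = 0.742 with limma).

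The genes that copy and process mitochondrial RNA, 29 tested, were divided as well (15 above, 14 below, median 0.03). The member with the smallest p, Hsd17b10, a part of the enzyme that cuts the 5′ ends of mitochondrial transfer RNAs, had 657, 745 and 692 normalized counts in D3TA and 830, 871 and 1379 in WT (-0.52 ± 0.30, adjusted p = 0.614 with limma). Tfam, which packs mitochondrial DNA and starts its transcription, was named after its values were seen, with 1109, 1130 and 1223 against 1299, 1660 and 1726 (-0.43 ± 0.27, adjusted p = 0.644 with limma). Its groups did not overlap, and WT-3 had the highest Tfam value. The part of Tfam in the mitochondrial values was not tested. Hsd17b10 and Tfam were the 2 of these 29 genes with every D3TA value below every WT value, and 2 others had every value above. Over all genes tested these shares were 6.84% and 8.18%. The 77 genes of the mitochondrial ribosome had 37 above and 40 below 0 (median -0.01). Mrpl42 had the smallest p among them, with 1078, 821 and 889 against 589, 572 and 746 (0.55 ± 0.28, adjusted p = 0.562 with limma).

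Among 9 tested regulators of mitochondrial genes, 5 were above and 4 below 0 (median 0.10). Ppargc1a, the coactivator known for driving mitochondrial gene expression in fat, muscle and liver, had 3.21, 5.05 and 2.59 normalized counts in D3TA and 10.5, 58.2 and 10.6 in WT. The groups did not overlap, but the filter fixed this in advance. With every D3TA value under 10, Ppargc1a could pass it only with all 3 WT values at 10 or more. This fixed the sign of the difference too. WT-2 was well above the other WT mice, and the D3TA values were 5 reads or fewer (-2.14 ± 1.06, adjusted p = 0.547 with limma). Without WT-2 the difference was -1.36, and over the libraries left out in turn it ran from -2.54 to -1.36. Coenzyme Q synthesis had 7 of 13 above 0 (median 0.02), and its member Pdss1, which makes the side chain, had 195, 133 and 115 against 86.0, 81.7 and 72.5 without overlap (0.84 ± 0.41, adjusted p = 0.544 with limma). Of 5 other subunits and carriers 3 were above 0 (median 0.02), and Higd2a, a complex IV factor, had a difference of -0.29 (adjusted p = 0.756 with limma).

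In the citric acid cycle, which feeds NADH and succinate to the chain, 12 of 17 genes were below 0 and 5 above (median -0.08). Suclg1, a subunit of succinate-CoA ligase, had 740, 955 and 1209 normalized counts in D3TA and 1352, 1537 and 1927 in WT without overlap (-0.74 ± 0.30, adjusted p = 0.451 with limma). Glycolysis had 14 of 17 genes above 0 (median 0.21), and 4 were higher at an unadjusted p under 0.05, against 6.08% of all genes, with 0 past the adjusted test. Gapdh was among the 4. This gene, named after its values were seen, is used by every cell and is known for its many pseudogenes. Its mean was 55.6 normalized counts in WT, and that of Aldoa, another enzyme of every cell, was 0.644. Hk3, the hexokinase known from myeloid cells, had 2016, 1286 and 591 against 368, 224 and 349 (1.91 ± 0.44, adjusted p = 0.217 with limma). The groups did not overlap, and the D3TA mice stood in the order of their neutrophil and erythroid sums given above. Within WT the order differed, with Hk3 highest in WT-1 and both sums highest in WT-3. Hk3 was called with DESeq2 (adjusted p = 0.00143) and without D3TA-3 (adjusted p = 0.00878 with limma). The part of neutrophils in this value was not tested.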

How the data were processed

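Poly(A) RNA of spleen cells from 3 D3TA and 3 WT mice was captured on poly-T beads and reverse transcribed from random primers, and no strand-marking step is described, per the labels' protocols. According to the submitters' processing notes, the tools were HISAT2, DESeq2, Trim Galore, FastQC and CASAVA, with the build mm10. The counting program, its annotation and its treatment of multiply mapping reads are not given in the sources used here.

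The deposited values are a signal: read counts that had been scaled in each library, as the values themselves show, although the table is titled as raw. Each library's values were whole multiples of a step, 0.864 to 1.12, and 100% of 149436 values divided by their step came out whole to within 0.001. These normalized counts were tested with limma 3.58.1 in R 4.3.3, since they are not raw counts. Reads are not counted by molecular identifier, so limits of 3 reads cover counting error only.

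Gene names, coordinates and transcripts came from GENCODE M21 on GRCm38, which held 24895 of 24906 identifiers. Genes with at least 10 normalized counts in at least 3 libraries were tested (15564) as log2(normalized count + 1), with trend and robust empirical Bayes, genotype as the only factor and a 2-sided Benjamini-Hochberg threshold of 0.05. Levels per kilobase use the union of a gene's exons. A p-value here measures the spread between the libraries of single mice.

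The members and lists were chosen with earlier results of these data known. The text names the mitochondrial genes, the Sdh genes and the tissue forms. It also names, for complexes I, III, IV and V, the nuclear gene with the highest value and those with the largest positive and negative difference. Of each further list it names the gene with the smallest p.

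Alternatives were other scalings, pseudocounts of 0.5 and 5, filters, edgeR 4.0.16, DESeq2 1.42.0 and limma-voom. Each library was also left out in turn, pairs of libraries were left out, and the replicate number and a hemoglobin share above 5% were added as terms. The fit was tested on simulated data.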

Additional observations from a re-analysis of the deposited data

How the results depend on the processing

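No respiratory chain gene passed under any alternative with 1 exception: leaving out each library in turn gave 0 to 1 such genes higher in D3TA, the 1 being Cox6b2 without D3TA-3. Over all genes, leaving out each library gave 0 to 248 higher and 0 to 58 lower, with both maxima without D3TA-3. Without a filter 26 were higher and 18 lower, with DESeq2 341 and 131, and with a hemoglobin term 10 and 1. The limits are 3 animals in each group, 2 WT libraries at the ends of the mitochondrial range, and hemoglobin shares that divide both groups. The causes of the changes below were not tested.

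Leaving out WT-2 and WT-3 together was chosen after seeing the data. It moved the median of nuclear genes to 0.27, of complex I to 0.27, complex III to 0.52, complex IV to 0.33 and complex V to 0.38, and the difference in the nuclear share of reads to 0.156 percentage points. It also turned the sign of mt-Nd3 (0.11), mt-Nd4 (-0.34), mt-Nd6 (0.030), mt-Co1 (-0.35), mt-Co2 (0.0245), Sdhc (0.056), Ndufa4 (0.22), Uqcrh (0.50), Cox4i1 (0.17), Cox4i2 (0.64) and Atp5g3 (0.073).

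Leaving out 1 library at a time gave ranges that crossed 0 for mt-Nd1 (-0.83 to 0.51), mt-Nd2 (-1.35 to 0.34), mt-Nd4 (-0.84 to 0.94), mt-Nd4l (-1.77 to 0.46), mt-Nd5 (-1.45 to 0.14), mt-Nd6 (-0.96 to 0.49), mt-Cytb (-0.98 to 0.70), mt-Co1 (-0.72 to 0.57) and mt-Co2 (-0.48 to 0.22). The same held for Sdha (-0.34 to 0.13), Sdhb (-0.43 to 0.052), Ndufa4 (-0.38 to 0.059), Uqcrh (-0.47 to 0.077), Atp5b (-0.29 to 0.11), Cox4i2 (-0.63 to 0.14), Cox6a2 (-0.71 to 0.033), Ndufa4l2 (-0.023 to 0.28) and Atp5g1 (-0.074 to 0.35).

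Without D3TA-1 and WT-2 the sign turned for mt-Nd1 (0.54), mt-Nd2 (0.49), mt-Nd4l (0.63), mt-Nd5 (0.43), mt-Nd6 (0.53), mt-Cytb (0.87), mt-Co2 (0.17), Uqcrh (0.054), Cox4i2 (0.25), Cox6a2 (0.011), Ndufa4l2 (-0.080) and Atpif1 (-0.057). With the hemoglobin term it turned for mt-Nd1 (0.20), mt-Nd2 (0.085), mt-Nd4l (0.17), mt-Nd5 (0.077), mt-Cytb (0.50), Sdha (0.054) and Atp5k (-0.090). Library size scaling turned mt-Cytb (0.058) and Atp5b (0.0030), and leaving mitochondrial, hemoglobin and immunoglobulin genes out of the size gave 0.056 and 0.00099. edgeR and DESeq2 turned mt-Nd4 (-0.42 and -0.42) and mt-Co1 (-0.29 and -0.29), and limma-voom turned mt-Co1 (-0.0049). Of 46 named genes, 24 changed sign under some alternative and 22 did not. Of 915 values, 846 kept their direction and side of the threshold, 66 turned their sign and 3 kept it and passed. As 0 genes passed in the main fit, a side could change only by a gain, so the count of 846 says little of stability.

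The replicate numbers were not used as pairs in the main fit. Same-numbered libraries correlated at -0.057, -0.0046 and -0.132 in their deviations from group means, and different-numbered ones at -0.169 to 0.169. With 3 libraries in each group, these values cannot show whether the animals were matched. With the replicate block 0 genes passed, the mitochondrial median was -0.37 and the nuclear median -0.09, and the adjusted p of mt-Co3 was 0.343 with limma.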
